A study of Homo sapiens with 4 samples.

Results

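The vascular endothelial growth factor (VEGF) family was described here in the off-target methylation left by an epigenome editor. It was taken as the ligands VEGFA, VEGFB, VEGFC and PGF, the receptor kinases KDR, FLT1 and FLT4, the co-receptors NRP1 and NRP2, and HIF1A, the hypoxia-regulated subunit of the transcription factor that raises VEGFA. These 10 genes were chosen by name from the 20163 protein-coding genes of the annotation, and any newly methylated region within 1000 bp of an annotated start site or inside the gene body was assigned to them. By that rule they held 11 of the 12864 new peaks of the list. VEGFA was the reason for the choice, since its CpG island (CGI) carries the amplicon with which the study followed off-target methylation.

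The cells were HEK293, a human embryonic kidney line, in 4 groups of 1 library each. Cells of 3 groups were transiently transfected with dCas9-SunTag (dCS), an sgRNA against the CGI of ISG15, and Ab-3A3L, an antibody-fused catalytic domain of DNMT3A joined to DNMT3L, either wild type (WT) or with the DNMT3A mutation K844E or R887E. They were sorted after 3 days for cells that carried every plasmid, and the remaining group was untreated. Sheared genomic DNA was pulled down with GST-MBD2, which binds methylated CpGs, and sequenced (MBD-seq). The list analysed here holds the peaks of the wild type library that were new against untreated cells. The libraries of the mutants and the reads of the untreated cells were not analysed here. With 1 library per condition there is no replicate, so that no difference was tested and every interval below covers counting error only.

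VEGF ligands are secreted proteins that drive the growth of blood and lymph vessels. VEGFA, VEGFB and PGF bind FLT1, VEGFA also binds KDR, the main signalling receptor of blood vessel endothelium, and VEGFC acts through FLT4 on lymphatic endothelium. The neuropilins NRP1 and NRP2 bind ligands beside these kinases. When oxygen is low, HIF1A escapes degradation and binds hypoxia response elements in its target genes, VEGFA among them. CGIs at start sites are usually free of methylation, and an editor that acts away from its target can then be seen there as a new MBD-seq signal.

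Of the 10 genes, 9 had a new peak within 1000 bp of a start site (90.0%, 95% exact binomial interval 55.5 to 99.7%), and NRP2 had none. Over all protein-coding genes the same rule found a peak at 45.0%, and 48.0% when the gene body was added. Among genes with a CGI at a start site, which all 10 have, it was 58.7%. The 10 genes were chosen by name, VEGFA because it carries the off-target amplicon. The interval is therefore no test against these shares. All 11 peaks lay at start sites and none lay in a gene body alone. The peak farthest from a start site was the downstream one of FLT1, 587 bp from the nearest annotated start. Outside the limit, the closest new peak assigned to none of the 10 genes lay 3257 bp from a start site of VEGFB, with a fold of 6.59, and the next 5447 bp from one of HIF1A, with a fold of 10.6. For NRP2, the nearest new peak lay 592076 bp from the canonical start.

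The number of CpGs at the promoter went with these counts. In the 2001 bp around the canonical start site, the family held between 106 CpGs (PGF) and 197 CpGs (FLT4), against a median of 96 for 19881 protein-coding genes. New peaks were present at 0.976% of the 4817 genes with fewer than 50 CpGs there, at 29.2% of the 5600 genes with 50 to 99, at 65.7% of the 5997 genes with 100 to 149 and at 79.0% of the 2688 genes with 150 to 199. PGF, KDR, NRP1, NRP2 and HIF1A belonged to the class of 100 to 149 CpGs, and 4 of these 5 had a peak. VEGFA, VEGFB, VEGFC, FLT1 and FLT4 belonged to the class of 150 to 199 CpGs, and all 5 had a peak. No gene of the family fell in the classes where peaks were rare. Whether the family differs from other genes of its CpG classes was not tested.

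Each peak has a fold in the authors' list, the ratio of fragments at the summit to a local background. The fragments and the background rate behind it were recovered from the fold and its p-value. The median fold over all peaks was 7.45 (quartiles 5.44 and 10.04), with a median of 18 fragments. The family's peaks had a median fold of 7.53 and ran from 4.12 to 23.6. Of the 11, 6 were above the median of the list, 3 above its upper quartile and 2 below its lower quartile. All 11 lay at start sites, and the listed peaks at start sites of coding genes had a median fold of 7.99, above that of the family. By width the family lay mostly on the upper side, with 9 of 11 peaks wider than the whole list's median of 498 bp. CpG density was 7.86 to 14.9 CpGs per 100 bp with a median of 10.3, a density above that of 54.5% of all peaks.

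The windows below show the DNA under the peaks. Each is 121 bp of hg19 read 5′ to 3′ on the strand of its gene, in lower case with every CpG, the site of methylation by DNMT3A, in capitals. For VEGFB, VEGFC, PGF, FLT4 and NRP1 the window is centred on the summit of the peak with the highest fold. For VEGFA and HIF1A, whose summits lie beside untranslated sequence, the CpG-richest window of the peak clear of untranslated regions is shown instead. For NRP2, which had no peak, the same choice was made in the CGI at its start. The windows of these 3 genes were chosen after the peaks had been seen.
VEGFA CpG-richest window, chr6:43739054-43739174, plus strand: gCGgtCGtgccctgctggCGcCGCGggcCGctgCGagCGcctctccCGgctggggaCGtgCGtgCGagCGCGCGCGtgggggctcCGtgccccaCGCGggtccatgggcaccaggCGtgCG
VEGFB summit, chr11:64002526-64002646, plus strand: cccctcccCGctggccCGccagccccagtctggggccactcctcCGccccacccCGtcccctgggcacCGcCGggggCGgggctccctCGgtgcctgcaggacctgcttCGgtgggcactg
VEGFC summit, chr4:177713261-177713381, minus strand: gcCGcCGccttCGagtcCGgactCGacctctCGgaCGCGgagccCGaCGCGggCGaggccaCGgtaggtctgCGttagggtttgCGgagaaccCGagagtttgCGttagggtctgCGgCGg
PGF summit, chr14:75422357-75422477, minus strand: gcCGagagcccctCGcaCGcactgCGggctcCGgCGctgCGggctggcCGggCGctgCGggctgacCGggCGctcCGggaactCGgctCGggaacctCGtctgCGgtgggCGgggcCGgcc
FLT4 summit, chr5:180076268-180076388, minus strand: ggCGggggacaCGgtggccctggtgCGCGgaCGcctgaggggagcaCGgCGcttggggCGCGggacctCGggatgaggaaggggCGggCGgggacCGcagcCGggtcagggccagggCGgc
NRP1 summit, chr10:33624225-33624345, minus strand: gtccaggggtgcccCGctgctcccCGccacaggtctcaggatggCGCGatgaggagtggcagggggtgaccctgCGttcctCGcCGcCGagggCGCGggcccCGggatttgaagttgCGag
HIF1A CpG-richest window, chr14:62162523-62162643, plus strand: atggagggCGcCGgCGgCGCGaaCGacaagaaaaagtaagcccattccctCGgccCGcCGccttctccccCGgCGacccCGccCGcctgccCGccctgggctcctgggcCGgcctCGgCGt
NRP2 CpG-richest window, chr2:206546933-206547053, plus strand: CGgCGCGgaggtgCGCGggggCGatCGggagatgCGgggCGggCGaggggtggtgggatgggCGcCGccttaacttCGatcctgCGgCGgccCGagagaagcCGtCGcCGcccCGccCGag
The window of NRP2 held 21 CpGs, as many as that of VEGFA, so that CpG-rich DNA of the kind seen under the peaks was present at the gene without one. The summit of NRP1, the strongest peak, held 12 CpGs in its window, fewer than the 19 of VEGFC and PGF or the 15 of FLT4. The summit window of VEGFB was the poorest, with 9.

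Among the ligands, VEGFA, the main angiogenic factor, had the widest peak and the highest fold. Its peak (chr6:43738265-43739882) was 1618 bp wide, held 181 CpGs and reached a −log10 q of 20.4 at a fold of 13.0. At the summit lay 20 fragments (95% Poisson interval 12.2 to 30.9) over a rate of 0.611, the genome-wide background that 29.4% of all peaks share. The peak was wider than 97.9% and had a higher fold than 90.0% of the new peaks. It began 317 bp downstream of the canonical start and ended 1934 bp downstream, so that the start itself lay outside it. Of the 15 annotated start sites of VEGFA, 8 lay inside and 11 within 1000 bp, together with the start of ENSG00000272114, a long non-coding RNA on the opposite strand. The summit, 597 bp downstream of the canonical start, fell in a coding exon of the canonical transcript and in untranslated or non-coding exons of others.

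The amplicon of the study sits at the upstream edge of this peak. It runs from 223 to 424 bp downstream of the canonical start, is 202 bp long, and had 108 bp inside the peak. Of its 12 CpGs, 9 lay within the peak, and its downstream end was 173 bp short of the summit. With 5.94 CpGs per 100 bp it was poorer in CpGs than the peak as a whole, with 11.2 per 100 bp. The amplicon therefore lay at the edge and not the centre of the called peak. CpG density was low just upstream of that edge, and whether methylation itself ended there was not tested. By bisulfite sequencing, the paper found this amplicon methylated on average after dCS with wild type Ab-3A3L, and unmethylated in untreated cells. The MBD-seq list gives no methylation level per CpG with which to compare it.

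VEGFB, a ligand of FLT1, was the gene whose peaks flanked its start. Its upstream peak (chr11:64001436-64001959) was 524 bp wide with 47 CpGs and a fold of 4.12, and its downstream peak (chr11:64002277-64002790) was 514 bp wide with 52 CpGs and a fold of 7.44. The gap of 317 bp between them contained the canonical start and was denser in CpGs than either peak, with 52 CpGs or 16.4 per 100 bp against 8.97 and 10.1. The fragments at the summits were close, 26 (16.98 to 38.1) and 28 (18.6 to 40.5). The lower fold upstream went with a background rate of 5.55, beside 2.90 downstream. Both rates were above the median rate of 0.966. Both peaks had more fragments than the median of the list, although neither fold reached its median. The start of DNAJC4, a chaperone gene, lay 472 bp from the upstream peak, and ENSG00000256116, a long non-coding RNA, started inside it.

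VEGFC, the lymphatic ligand, had 1 peak (chr4:177713168-177713762) of 595 bp with 68 CpGs. The fold of 9.31 rested on 14 fragments (7.65 to 23.5) over the genome-wide rate, and was higher than that of 67.5% of the list. Like the peak of VEGFA it lay wholly downstream of the start, from 314 to 908 bp, with its summit in the coding part of an exon at 755 bp. PGF, the placental ligand of FLT1, had a peak (chr14:75421952-75422698) of 747 bp with 72 CpGs and a fold of 9.56 from 22 fragments (13.8 to 33.3) over a rate of 1.40. It lay across the canonical start, from 398 bp upstream to 348 bp downstream. Its summit was 117 bp upstream of that start and outside the gene, and the peak covered 100% of the 587 bp CGI. The 4 ligands thus showed 3 arrangements, with the peak downstream of the start in VEGFA and VEGFC, on either side of it in VEGFB, and across it in PGF.

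The 3 receptor kinases had peaks across their starts. KDR, the principal receptor of VEGFA, had a peak (chr4:55991525-55992173) of 649 bp with 60 CpGs and a fold of 6.82. Behind it were 19 fragments (11.4 to 29.7) over a rate of 1.93, and 41.4% of the list had a lower fold. It ran from 411 bp upstream to 237 bp downstream and covered 84.1% of its CGI. The summit, 117 bp downstream, was in the untranslated part of the first exon.

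FLT1, the receptor shared by VEGFA, VEGFB and PGF, had a peak at the start (chr13:29068660-29069397) and a smaller one downstream of it (chr13:29068136-29068393). The peak at the start was 738 bp wide with 84 CpGs, a fold of 11.7 and 26 fragments (16.98 to 38.1), and its summit lay 190 bp downstream. The smaller one was 258 bp wide with 28 CpGs, a fold of 5.12 and 14 fragments (7.65 to 23.5), and its summit lay 1035 bp downstream in an intron. The gap of 266 bp between them held 17 CpGs, 6.39 per 100 bp, which was less than in the peaks with 11.4 and 10.9 per 100 bp. This is the opposite of VEGFB, where the gap was the denser part. Neighbouring peaks under 500 bp apart were not rare, and 16.3% of the list had one. The start of ENSG00000279393, another annotated gene on the opposite strand, lay 208 bp from the peak at the start of FLT1.

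FLT4, the lymphatic receptor, had the most CpG-dense peak of the family (chr5:180076154-180076822), with 100 CpGs in 669 bp or 14.9 per 100 bp, above 98.8% of all peaks. Its fold was 7.53, close to the median of the list, from 29 fragments (19.4 to 41.6) over a rate of 2.98. The peak ran from 222 bp upstream to 446 bp downstream and covered 41.9% of the CGI at the canonical start. FLT4 has 3 more CGIs at internal annotated starts, 20474 to 38842 bp downstream, with 22, 238 and 20 CpGs, and none of them overlapped a new peak. Whether they were already methylated in untreated cells was not analysed here. The internal CGI of 238 CpGs was 3108 bp long, larger than the one at the canonical start with 189 CpGs in 1596 bp.

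The neuropilins were the extremes of the family. NRP1 had the strongest peak (chr10:33622993-33626134), with 37 fragments (26.1 to 51.0), a −log10 q of 47.4 and a fold of 23.6 over the genome-wide rate of 0.611. It was 3142 bp wide, wider than 99.9% of the list, and its fold was also above 99.9% of the list. It held 247 CpGs, but spread at 7.86 per 100 bp, and 20.7% of the peaks were less dense. The peak ran from 2539 bp upstream to 602 bp downstream of the canonical start, contained 8 of the 13 annotated starts and covered 98.0% of a CGI of 3077 bp. The summit was 690 bp upstream of the canonical start, in an intron of alternative transcripts.

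NRP2 had no new peak at any of its 15 annotated starts. It has a CGI of 963 bp with 108 CpGs at the canonical start, from 621 bp upstream to 341 bp downstream, and another of 1717 bp with 145 CpGs that begins 2375 bp downstream. Its promoter held 130 CpGs, nearly the 131 of NRP1. The whole neighbourhood was without peaks. No new peak lay within 500000 bp of its start, and the other coding genes there, INO80D, NDUFS1 and EEF1B2, also had none, although each has a CGI at a start site. These genes lay 403673, 476943 and 477394 bp away, toward the limit of that distance. Such empty surroundings were found around 5.54% of protein-coding genes and 3.49% of those with a CGI at a start. For comparison, the other 9 genes had between 1 further peak (VEGFC) and 36 (VEGFB) within the same distance. The list holds only regions that were new, so that it does not tell methylation already present in untreated cells from DNA that stayed unmethylated or was not covered, and the methylation of NRP2 in untreated cells was not analysed here.

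HIF1A had the weakest evidence of the 9. Its peak (chr14:62162281-62162679) was 399 bp wide with 41 CpGs, 8 fragments (3.45 to 15.8) over the genome-wide rate and, from these, a −log10 q of 4.90 at a fold of 5.59. The fewest fragments of any listed peak at that rate were 6. It lay from 50 to 448 bp downstream of the canonical start and covered 28.8% of a CGI of 1384 bp, the lowest share among the 9. The summit was in a coding exon, and the printed window opens with the start codon of HIF1A. The start of HIF1A-AS1, an antisense RNA, also lay inside the peak, so that it belongs to the start regions of both genes.

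**Figure D1:**
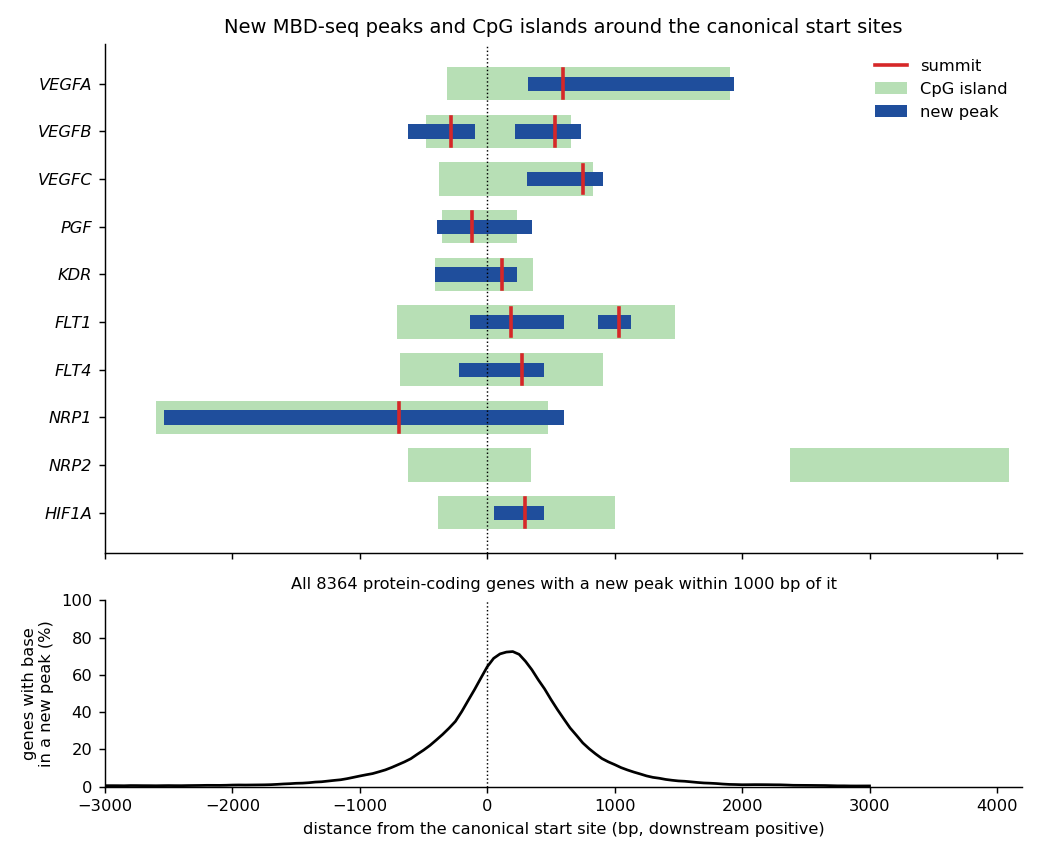
Top, CpG islands (green), new peaks (blue) and summits (red) of the 10 genes by distance from the canonical start site (horizontal axis, bp, downstream to the right). Bottom, share of the 8364 protein-coding genes with a new peak within 1000 bp of the canonical start whose base at that distance lay in a new peak (vertical axis, percent). The peaks of VEGFA, VEGFC and HIF1A began downstream of the start, those of VEGFB left it free, and the share over all genes was 64.4% at the start and 72.5% at 200 bp downstream.

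The position of the peaks was then set against all genes. The canonical start lay inside a peak in 5 of the 9 genes, PGF, KDR, FLT1, FLT4 and NRP1, and in 64.4% of the 8364 protein-coding genes with a peak within 1000 bp of it. Over those 8364 genes, the share of genes with a peak over a given base was 40.4% at 200 bp upstream, 72.5% at 200 bp downstream and 57.4% at 400 bp downstream, so that downstream bases were covered more often than upstream ones. In the family, 8 of 11 summits were downstream of the canonical start and 3 upstream, a count that was not made over all genes. Of the CGI bases upstream of the start, 0% lay in peaks for VEGFA, VEGFC and HIF1A and 100% for PGF and KDR. The downstream share was the larger in 6 of the 9 genes, beside 56.7% of 7933 genes with a peak in the CGI at their start. Pooled over the 9 genes, 63.9% of upstream and 66.2% of downstream bases were covered. These shares rested on the long upstream island of NRP1 and became 40.4% and 64.0% without it, near the 46.9% and 63.7% of all genes.

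By average density, the part of the family's CGIs inside the peak was more often the denser one. For this count a CpG that spans the edge of a peak was assigned by its first base on the plus strand, whereas the counts per peak and per gap above hold only CpGs that lie wholly inside. Of the 8 genes with CGI bases outside the peaks, 6 had more CpGs per 100 bp inside than outside. The same count over all genes was not made. Among the 6, KDR was nearly even, with 9.27 inside and 9.02 outside. VEGFA had 11.4 inside and 8.07 outside, and FLT4 had 15.1 and 9.49. VEGFB, with 11.4 inside and 16.7 outside, and NRP1, with 8.13 and 9.52, showed the opposite order. In NRP1 only 63 bp of the CGI were outside, which is little for a density. The averages do not locate the maximum. The densest window of 251 bp was centred outside the peaks in VEGFB and also in VEGFC, FLT4 and HIF1A. It held 16.3 CpGs per 100 bp in VEGFC, against at most 14.3 inside. In FLT4 these values were 17.1 and 16.3, and in HIF1A 13.1 and 12.0. In VEGFA, KDR, FLT1 and NRP1 the densest window was centred inside.

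By island, the annotated starts of the family had 14 CGIs within 1000 bp, of which 9 carried a new peak. Over all protein-coding genes 46.6% of such islands did. The 10 islands at canonical starts carried 9 of these peaks, against 55.5% over all genes. The 4 islands at internal starts only, 3 of FLT4 and 1 of NRP2, carried none, against 17.5% over all genes. The gene bodies of VEGFC, FLT4 and NRP1 held 4 more islands away from every start, and 0 of 4 had a peak, which allows a share of up to 75% when the limit is set at 3 counts of the total. The share over all genes was 3.04%. An island already methylated in untreated cells cannot gain a new peak. These counts and shares therefore do not tell such islands from islands that stayed unmethylated, which was not tested. Across the family 45.0% of the bases of its start-site islands lay in new peaks.

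Hypoxia response elements were located because their core contains a CpG. The core was searched as ACGTG or GCGTG on both strands, with the palindrome CACGTG counted once, in the 2001 bp around each canonical start. Such a short word is common, and 95.5% of all protein-coding promoters held one, with a median of 4. The family held 54 cores, from 3 in VEGFB and KDR to 8 in VEGFA, and 17 of the 54 lay in a new peak. The same share over all promoters was not computed. All 4 cores of NRP1 lay in its peak, none of the 3 of KDR did, and the 6 of NRP2 had no peak to lie in. Of the 8 in VEGFA, 2 were in the peak and the other 6 were upstream of it. The peaks of VEGFA and NRP1 run past the searched stretch, and over their full length they held 11 and 9 cores. The core farthest upstream, 974 bp before the canonical start, is shown because the studied hypoxia response element of VEGFA lies upstream of the gene. It is printed with the core in capitals on the strand of the gene.
VEGFA element, chr6:43736944-43737004, plus strand: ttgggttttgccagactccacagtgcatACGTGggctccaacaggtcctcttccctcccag
This window had no new peak, but it holds only 1 CpG, that of the core. With so few CpGs for GST-MBD2 to bind, the absence does not tell whether that CpG was methylated, which was not tested. Per 100 CpGs there were 3.71 cores in the family's promoters and 3.27 in its peaks, beside 5.02 in all promoters and 3.63 in all new peaks. A core is a match of letters and not a bound site.

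The wider pathway was described with 7 lists of other genes. Of their 63 genes found in the annotation, 38 had a new peak at a start site (60.3%, 47.2 to 72.4%), against 45.0% of all protein-coding genes and 58.7% of those with a CGI at a start. The peaks lay with the CGIs, at 37 of 54 genes with one and at 1 of 9 without.

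Among relatives of the ligands, 4 of 5 had a peak. These were the platelet-derived growth factors PDGFD (fold 16.1), PDGFC (9.93), PDGFB (7.54) and PDGFA (5.61). VEGFD, the other ligand of FLT4, had none, and only 14 CpGs at its promoter. VEGFC, which shares its receptors, has a CGI at the start, and VEGFD has none. Of the related receptor kinases, KIT (10.8) and FLT3 (6.48) had a peak, and PDGFRA, PDGFRB and CSF1R did not. KIT and PDGFRA are the neighbours of KDR on chromosome 4, and FLT3 lies near FLT1 on chromosome 13.

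Of the genes for HIF subunits and oxygen sensing, 6 of 9 had a peak. EGLN1, the prolyl hydroxylase that marks HIF1A for degradation, had the highest fold with 19.2. EPAS1, the sister subunit of HIF1A, followed with 10.5. ARNT2 had 5.52 and VHL, which recognises hydroxylated HIF1A, had 5.29. EGLN3 and HIF1AN were the other two with a peak, and HIF3A, ARNT and EGLN2 had none. All 9 have a CGI at a start site, so that a CGI alone did not separate them. Of genes that HIF activates, 10 of 12 had a peak. The collagen hydroxylase P4HA1 was highest at 15.3. SLC2A1, the glucose transporter, and ADM, a vasodilator peptide, both had 13.0 from 20 fragments, the values of VEGFA itself. The lowest were the mitophagy genes BNIP3 (6.85) and BNIP3L (6.21). ANKRD37, DDIT4, NDRG1, PDK1 and KDM3A lay between these, and CA9 and EPO had no peak.

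Of genes that carry the signal of the VEGF receptors, 11 of 17 had a peak. The highest were the kinase PRKCA (19.2) and the kinases MAP2K1 and PIK3CA (both 13.7), and the lowest were PLCG1 (5.78), the phospholipase recruited by KDR, and NOS3 (3.21), the endothelial nitric oxide synthase. PRKCB, SRC, PTK2, GRB2 and PIK3R1 were among the others with a peak. MAP2K2, MAPK3, SHC1, SH2D2A and AKT1 were among those without. All 17 have a CGI within 1000 bp of some annotated start. Around the canonical start, however, SHC1 and SH2D2A held only 42 and 28 CpGs, and NOS3, which had a peak, held 29. Members of a pair of like genes could therefore differ, as MAP2K1 and MAP2K2 did.

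The angiopoietin system and endothelial markers had the lowest share of genes with a peak, 2 of 10 (20%, 2.52 to 55.6%). They were the endothelial cadherin CDH5 (3.41) and the transcription factor ERG (2.90), both below the lower quartile of all folds. ANGPT1, ANGPT2, TEK, TIE1, VWF, ESAM, CLDN5 and ENG had none. This list had a median of 35 promoter CpGs and a CGI at 5 of 10 genes, the lowest of the 7 lists. Of its 5 genes with a CGI, only 1 (ERG) had a peak, beside 58.7% of all coding genes with one. ESAM and CLDN5, with a CGI and 133 and 165 promoter CpGs, had no peak, and CDH5 has no CGI. Why the share was low was not tested. Of inhibitors of angiogenesis, 3 of 5 had a peak, namely VASH1 (10.5), THBS1 (7.01) and COL18A1 (6.52), and THBS2 and SERPINF1 had none. The intervals of all lists overlapped, and no list was tested against another.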

How the data were processed

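MBD-seq covered 4 groups of HEK293 cells (1 library per group), of which the new peaks of wild type Ab-3A3L were used. The authors mapped reads to hg19 with Bowtie2 on Galaxy. FastQC, deepTools and MACS2 are also in the submitters' processing notes, and caller settings are not given in the sources used here. The deposited fold was taken as a ratio of summit fragments to background, with 1 added to both. The deposited −log10 values belong to the p-value and q-value, and the smallest −log10 q was 2.00. The authors' score, 10 times the −log10 q rounded down, was not used. The other deposited column gives the summit position.

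Fragments k and rate were recovered from fold = (k + 1)/(rate + 1) and a Poisson p-value, with an error in −log10 p of at most 0.000403. The notes do not say which tool called the peaks, and this step assumes the MACS2 definitions of these columns. Annotation was GENCODE 44 lifted to hg19. CGIs were built on unmasked sequence (200 bp or more, GC of 50% or more, observed to expected CpG over 0.6). Simulated checks recovered 2000 of 2000 fragment numbers, 100 of 100 islands and 2000 of 2000 overlaps.

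The genes and lists were chosen with earlier results of these data known. All 10 members, all list genes, the 2 highest and 2 lowest folds per list and genes that share a member's peak are named, except for some list genes that are not reported here. PECAM1 matched no symbol. Intervals are 95% exact, but the limit for a count of 0 was set at 3 counts, a looser rule for few islands. Alternatives covered the peak threshold, distance, transcripts, overlap and island criteria. The work used scipy 1.17.1, matplotlib 3.10.9, numba 0.67.0, pandas 2.3.3 and numpy 2.4.6 under Python 3.11.15.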

Additional observations from a re-analysis of the deposited data

How the results depend on the processing

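No paired analysis was possible because each condition had 1 library. Of 41 alternatives computed, 31 stayed within the limit of 1.5 times for counts or the error of the value. When peaks below the median fold were dropped, the family had 6 peaks in place of 11, VEGFB, KDR and HIF1A lost theirs, and 5584 coding genes in place of 9065, 34.6% of the family's island bases in place of 45.0% and 25 list genes in place of 38 remained. With a −log10 q of at least 10 the last 3 values were 5427 genes, 39.9% and 25, and HIF1A lost its peak. With a start site inside the peak, 7 genes were left, without VEGFB and VEGFC. Stricter islands gave 46.3% of bases, and 5 of 9 islands had at least 50% of their length in peaks. Among start-site peaks only, 88.7% had a lower fold than VEGFA, in place of 90.0%. NRP2 had no peak under any distance tried, up to 2000 bp. Depth limits single peaks, with 18 summit fragments at the median peak and 8 at HIF1A, and no replicate shows the spread between cultures.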
